A study of Rattus norvegicus with 9 samples.

Results

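The actin, tubulin, neurofilament and neurite growth genes were followed in the supraoptic nucleus of the rat, the hypothalamic cell group whose magnocellular neurons send vasopressin and oxytocin to the posterior pituitary. The list names 10 genes: Actb, Actg1, Tuba1a, Tubb3, Map1b, Map2, Mapt, Gap43, Nefl and Nefm. Their members were all probe sets annotated to exactly 1 of these symbols, with the Affymetrix control probe sets left out. This gave 17 of the 8740 probe sets that are not controls, for 8 of the 10 genes; Tuba1a and Tubb3 had 0. Of the 17, 15 had a mean signal past the filter of 23.1 and were among the 5247 probe sets tested, and the 2 others, 1 each of Map1b and Map2, are given by their signals alone.

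The series holds 9 one-colour arrays, 3 from controls, 3 from rats dehydrated for 1 day and 3 from rats dehydrated for 3 days; by the labels, all rats were male Sprague Dawley animals of 10 to 12 weeks. Each group has arrays a, b and c. The labels do not say whether an array carries the RNA of 1 animal or of a pool, so every p-value below measures a spread between samples that may be technical in part. Values are MAS5 signals, which have no unit. Arrays are compared within the same probe set only, except where marker signals are summed. Mean signals of different probe sets are ranked only to filter them, to pick the brightest and to call a probe set bright or dim. A "difference" below is the log2 fold change of signal + 4, given ± SE.

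Actin, made mostly as the beta and gamma forms (Actb and Actg1) in cells other than muscle, forms the filaments of the cell cortex, of dendritic spines and of growth cones. Microtubules are built from alpha and beta tubulins (Tuba1a and Tubb3) and are held and spaced by the proteins encoded by Map1b, Map2 and Mapt (tau). Neurofilaments, of which Nefl and Nefm encode the light and middle subunits, set the calibre of axons, and Gap43 encodes a membrane protein of growing axons and of terminals. During dehydration the magnocellular neurons of this nucleus are known to enlarge while the surrounding glial processes withdraw.

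The tissue markers were present on the arrays: Avp signals lay between 1622 and 5678, and Pdyn, the dynorphin precursor, between 448.4 and 1120. Oxt, the oxytocin gene, read 208.3 on control c and 272 on 1-day c, against 2331 to 4356 on the other arrays. These 2 arrays stand apart in their range of signal too. Their brightest probe set reached 2105 and 2239, against 3867 to 6294.9 on the others, while the 2 percent trimmed mean of all 9 arrays was 100.1. Median signals ran between 26.8 and 40.3. Values without these 2 arrays, a choice made after seeing the data, stand beside some of those that differ without them, but not beside all.

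After 3 days of dehydration Actg1, cytoplasmic gamma-actin, had the largest difference among the members, with all 3 arrays above all control arrays, but it did not pass the test over all probe sets. Its probe set, X52815cds_f_at, read 3055, 1271 and 1102 on control arrays a, b and c, 3006, 2091 and 1136 at 1 day, and 3950, 3200.0 and 4752 at 3 days. The lowest 3-day array thus stood just above the highest control array, control a. The means were 3967 ± 776 at 3 days and 1809 ± 1082 in control (SD, n = 3 each), a fold change of 2.41 with a 95 percent interval of 1.23 to 4.70. On the log2 scale the difference was 1.27 ± 0.44 (limma adjusted p = 1.00, unadjusted p = 0.0147), and the adjusted p was 0.873 with the array letter as a block. Set against control array by array, it was 0.37 for letter a, 1.33 for letter b and 2.10 for letter c. It stood at 0.99 without control c and at 0.92 after quantile normalization.

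Between the times Actg1 was also higher at 3 days, at 3967 ± 776 against 2078 ± 935 at 1 day (SD, n = 3 each). The difference was 1.02 ± 0.44 (limma adjusted p = 0.998), and no array of one time overlapped the other. Without 1-day c it was 0.64, without 1-day a 1.34, and after quantile normalization 0.67. At 1 day the groups overlapped, with a difference from control of 0.25 ± 0.44 and a fold change of 1.19 (95 percent interval 0.61 to 2.31). That value was 0.70 without control a and 0.63 without 1-day c, and it turned to -0.033 without control c and to -0.075 without 1-day a.

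The ending _f in the name of a probe set marks probes that match a family of sequences, and _s marks probes shared by several transcripts. The Actg1 probe set carries _f, so its signal may include other actins, and how much was not tested. A pair of further probe sets is annotated to Actg1l1, Actg1 and Actb together and so holds no member. One of them, rc_AI070848_f_at, read 2811, 2560 and 1111 in control, 3066, 2402 and 1228 at 1 day, and 3451, 3294 and 4670 at 3 days. The other, rc_AI179012_s_at, read 2857, 3386 and 1644 in control, 3090.2, 3885 and 1619 at 1 day, and 3685, 3925 and 4840 at 3 days. As for Actg1, the lowest 3-day array was above the highest control array, and the letter c pair spans the widest gap. Their differences at 3 days from control were 0.91 ± 0.42 and 0.71 ± 0.37 (limma adjusted p = 1.00 each). They were 0.53 and 0.16 after quantile normalization, and 0.49 and 0.41 without control c and 1-day c.

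Actb, cytoplasmic beta-actin, differed less. Its probe set V01217_at read 2344, 2680 and 1616 on control arrays a, b and c, 2251, 2767 and 1721 at 1 day, and 2090.2, 3273 and 2253 at 3 days. The 3 groups overlapped, and array b was the highest of each group. The difference from control was 0.03 ± 0.30 at 1 day and 0.20 ± 0.30 at 3 days (limma adjusted p = 1.00 each). The fold change at 3 days was 1.15, with a 95 percent interval of 0.73 to 1.81. A change of 2-fold in either direction lies outside it, for the signal of this probe set alone. After quantile normalization the difference at 3 days turned to -0.19, and without control c and 1-day c it was -0.010.

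The arrays also carry Affymetrix control probe sets for beta-actin, at the 5' end, the middle and the 3' end of its transcript. The middle one read 2231, 1981 and 1848 in control, 2260, 3154 and 2034 at 1 day, and 3406, 3140 and 3232 at 3 days. There the 3-day arrays were close together and all above control, while at the 5' end they read 2545, 2056 and 2255 against 2131, 2201 and 1533 in control and overlapped. At the 3' end they read 2765, 2038 and 3235 against 2218, 1635 and 1643, and overlapped too. The ratio of 3' to 5' signal of beta-actin ran between 0.74 and 1.07 on the control arrays, 1.13 and 1.48 on the 1-day arrays, and 0.99 and 1.43 on the 3-day arrays. For Gapdh it lay between 0.85 and 1.55 over the 9 arrays. The highest value, 1.55, was that of 3-day c and stood apart from the rest. The same array, 3-day c, read highest of all 9 for Actg1 and for the shared actin pair. Without 3-day c the Actg1 difference at 3 days was 1.13 from control and 0.88 from 1 day.

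**Figure D1:**
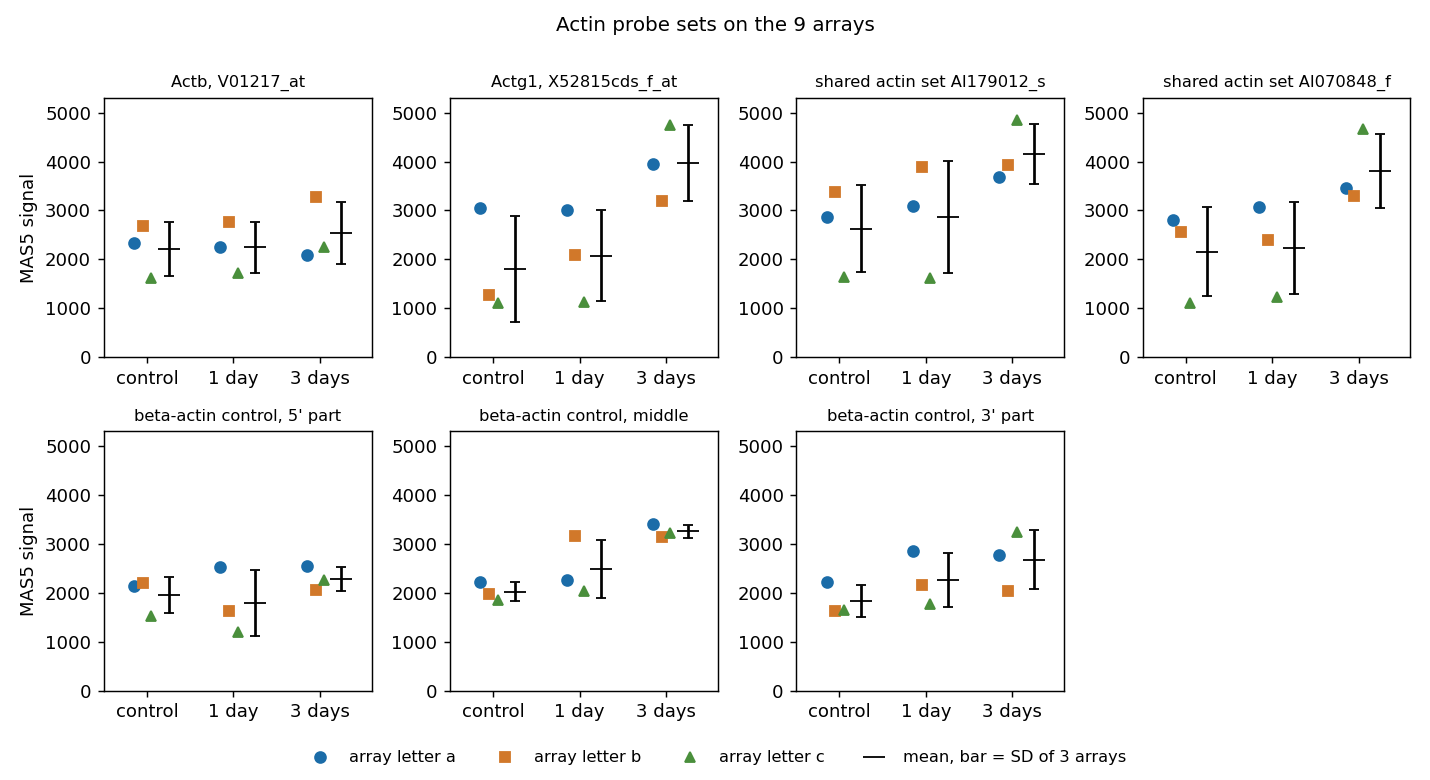
MAS5 signal (linear, no unit) of the actin probe sets on the 9 arrays: the members Actb and Actg1, the pair shared by several actin genes, and the 3 control probe sets for beta-actin. Points are single arrays by letter, and the line and bar are the mean and SD of 3 arrays. For Actg1 and the shared pair the 3-day arrays lie above all control arrays, with 1-day b of AI179012_s above 3-day a, and control c and 1-day c are the lowest of their groups, while the 3 groups of Actb overlap.

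The brightest probe sets of the array stood higher on the 3-day arrays. The top 1 percent of mean signal holds 82 besides the members and the probe sets they share; 75 of them were higher at 3 days than in control, with a median difference of 0.49, and 78 were higher at 3 days than at 1 day, with a median of 0.48. At 1 day against control it was 47 of 82, with a median of 0.02. Without control c and 1-day c the medians were 0.30 for 3 days over control, with 68 of 82 higher, 0.25 for 3 days over 1 day and 0.05 for 1 day over control. From its own mean over the arrays, the median bright probe set lay at -0.66 on control c, -0.59 on 1-day c and 0.52 on 3-day c. The part this has in the actin differences was not tested beyond the values after quantile normalization.

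The promoter of Actg1 is shown because a CArG box, the element bound by serum response factor and known from actin genes, lies in it. The 80 bases are from the RefSeq promoter table of the GRCr8 build, at chr10:106121002-106121081 on the minus strand, with the CArG box in capitals; its first base is 90 bases before the start of the gene.
Actg1: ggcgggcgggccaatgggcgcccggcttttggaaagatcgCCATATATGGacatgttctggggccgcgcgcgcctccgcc
The pattern reads the same on both strands, and no other motif was searched. Within the 250 bases before the start, 501 of 33469 promoters in the table held it, or 1.5 percent. Of the 5 members with an entry there, 1 held it. The arrays measure RNA and carry no measurement at this site.

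No probe set was annotated to Tuba1a or Tubb3 alone. Tuba1a, the main alpha-tubulin of postmitotic neurons, was named on a pair of probe sets with other alpha-tubulin genes. V01227_s_at, shared by Tuba1b and Tuba1a, read 2167, 2098 and 1414 on control arrays a, b and c, 2150.1, 2358 and 1620.4 at 1 day, and 2256, 2950 and 1973 at 3 days. The groups overlapped, and array c was the lowest in each. The difference at 3 days from control was 0.34 ± 0.27 (limma adjusted p = 1.00), 0.06 after quantile normalization and 0.14 without control c and 1-day c. J00797cds_s_at, shared by 4 annotated alpha-tubulin genes or copies, read 3074, 2200.2 and 1712 in control, 3021, 2728 and 702.7 at 1 day, and 2897, 1252 and 1816 at 3 days, with a difference at 3 days of -0.27 ± 0.53. That was -0.64 after quantile normalization and -0.47 without control c and 1-day c. The pair thus stood on opposite sides of 0.

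Among the genes of microtubule-associated proteins, none of the 9 tested probe sets passed in any comparison. Map1b, whose product is abundant in growing axons, was dim. Its brightest probe set, U52950_at, read 41.5, 53.5 and 28 on control arrays a, b and c, 47.9, 24.1 and 22.4 at 1 day, and 63.4, 53.4 and 38 at 3 days. The 1-day arrays b and c were the lowest of all 9, and the groups overlapped. Its mean was 51.6 ± 12.8 at 3 days and 31.5 ± 14.3 at 1 day (SD, n = 3 each), a difference of 0.69 ± 0.40 (limma adjusted p = 0.998) that was 0.38, 1.03 and 0.67 within the letter pairs. Against control it stood at -0.37 ± 0.40 at 1 day and 0.32 ± 0.40 at 3 days. These became -0.42 and 0.09 without control c and 1-day c, and the difference between the times became 0.51.

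The other Map1b probe sets gave little more. X16623cds_s_at ranged from 5.3 on control c to 64.3 on 3-day a, with 7.9 on 3-day c, and its SE of 0.80 was the highest of any member. Its difference at 3 days from control was 0.38, and -0.40 without control c and 1-day c. U52950_g_at, left out by the filter, read 25.5, 24.3 and 14.5 in control, 16.4, 19.1 and 2.8 at 1 day, and 27.5, 19.4 and 3.9 at 3 days. On all 3 probe sets array c was the lowest or next to lowest of its group.

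Map2, which marks dendrites and cell bodies, had 5 probe sets. The brightest, U30938_at, read 521.1, 1000.2 and 629.4 on control arrays a, b and c, 530.4, 955.2 and 888.3 at 1 day, and 641.5, 1011 and 685.6 at 3 days. Array a was the lowest and array b the highest of each group, and the groups covered nearly the same range. The difference from control was 0.15 ± 0.33 at 1 day and 0.15 ± 0.33 at 3 days, and that between the times was -0.01 ± 0.33 (limma adjusted p = 1.00, 1.00 and 0.998). The fold change at 3 days was 1.11, with a 95 percent interval of 0.67 to 1.83.

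The 3 other Map2 probe sets that were tested stood between -0.17 and 0.25 at 1 day, and between -0.06 and 0.30 at 3 days; without control c and 1-day c these ranges were -0.69 to 0.02 and -0.37 to 0.03. They did not follow U30938_at from array to array: X53455cds_s_at was highest on 3-day a, at 246.2, and X17682_s_at lowest on 3-day c, at 38. S74265_s_at, under the filter, ranged from 1.2 to 31.

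Mapt encodes tau, the main microtubule-associated protein of axons, and had 3 probe sets. The brightest, rc_AI227608_s_at, read 1265, 928.2 and 1232 on control arrays a, b and c, 1214, 798.9 and 1148 at 1 day, and 1231, 1214 and 1418 at 3 days. All 3-day arrays lay above all 1-day arrays, though the margin between 3-day b and 1-day a was narrow, and they overlapped control. Its mean was 1288 ± 113 at 3 days and 1054 ± 223 at 1 day (SD, n = 3 each), a difference of 0.31 ± 0.25 (limma adjusted p = 0.998). Against control it was -0.13 ± 0.25 at 1 day and 0.18 ± 0.25 at 3 days, with a fold change at 3 days of 1.13 (95 percent interval 0.78 to 1.66).

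The Mapt probe set rc_AA957930_s_at gave similar values, at -0.07 ± 0.28 at 1 day and 0.21 ± 0.28 at 3 days against control, and 0.28 ± 0.28 between the times. These became -0.11, 0.38 and 0.49 without control c and 1-day c. X79321_at was less even: it read 433.7, 611.8 and 1261 in control, 633.2, 470.6 and 258.4 at 1 day, and 575, 546.3 and 1003 at 3 days. Its letter c arrays held both the highest and the lowest of the 9 signals. The difference from control was -0.70 ± 0.44 at 1 day and -0.03 ± 0.44 at 3 days, and 0.08 ± 0.37 and 0.40 ± 0.34 without control c and 1-day c.

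Gap43 stood above control at 1 day and below it at 3 days, by differences that did not pass the test. Its probe set L21192_at read 868, 854.9 and 912.9 on control arrays a, b and c, 974.4, 1073 and 979.8 at 1 day, and 927.9, 589.4 and 850.4 at 3 days. All 1-day arrays lay above all control and all 3-day arrays, and 3-day b was the lowest of the 9. The mean was 1009 ± 55 at 1 day against 878.6 ± 30.4 in control (SD, n = 3 each), a difference of 0.20 ± 0.23 that was positive in all 3 letter pairs. At 3 days it was -0.18 ± 0.23 against control, with overlap, and 0.016 without 3-day b. Between the times the difference was -0.38 ± 0.23 (limma adjusted p = 0.998, unadjusted p = 0.134), with -0.07, -0.86 and -0.20 within the letter pairs. Without 3-day b it was -0.18.

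The genes of the neurofilament subunits differed by probe set. For Nefl, the light subunit, the brightest, AF031880_at, read 757.9, 952.7 and 763.2 on control arrays a, b and c, 546.9, 916.1 and 1026 at 1 day, and 593.7, 1033 and 746 at 3 days. These overlapped fully, with differences from control of -0.03 ± 0.30 at 1 day and -0.09 ± 0.30 at 3 days. The differences became -0.26 and -0.14 without control c and 1-day c. The dimmer Nefl probe set, M25638_s_at, read 256.7, 263.6 and 164.3 in control, 311.9, 301.3 and 243.6 at 1 day, and 451.9, 328.4 and 332.2 at 3 days. Its 3-day arrays lay above all control and all 1-day arrays.

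On that dimmer probe set Nefl averaged 370.8 ± 70.2 at 3 days and 228.2 ± 55.4 in control (SD, n = 3 each). The fold change was 1.63 with a 95 percent interval of 1.09 to 2.45, and the difference 0.71 ± 0.27 (limma adjusted p = 1.00, unadjusted p = 0.0230; adjusted p = 0.873 with the letter as a block). It was positive in all 3 letter pairs, at 0.81, 0.31 and 1.00, and stood at 0.73 after quantile normalization and 0.49 without control c. At 1 day it was 0.34 ± 0.27, and between the times 0.36 ± 0.27. The brighter probe set of the same gene, at -0.09, does not share this difference, and which of the pair follows the transcript was not tested.

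Nefm, the middle subunit, read 530.3, 580.5 and 416.5 on control arrays a, b and c, 325.6, 646.1 and 515 at 1 day, and 521.7, 639.7 and 337.8 at 3 days on its probe set Z12152_at. The lowest arrays were 1-day a and 3-day c, and all groups overlapped. Its difference from control was -0.08 ± 0.32 at 1 day and -0.06 ± 0.32 at 3 days (limma adjusted p = 1.00 each). These became -0.27 and -0.20 without control c and 1-day c. Other neuronal intermediate filament genes, which are no members, overlapped control at both times too. Nefh, the heavy subunit, stood at -0.29 ± 0.33 and -0.23 ± 0.33, and Ina, alpha-internexin, at -0.08 ± 0.46 and 0.21 ± 0.46.

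**Figure D2:**
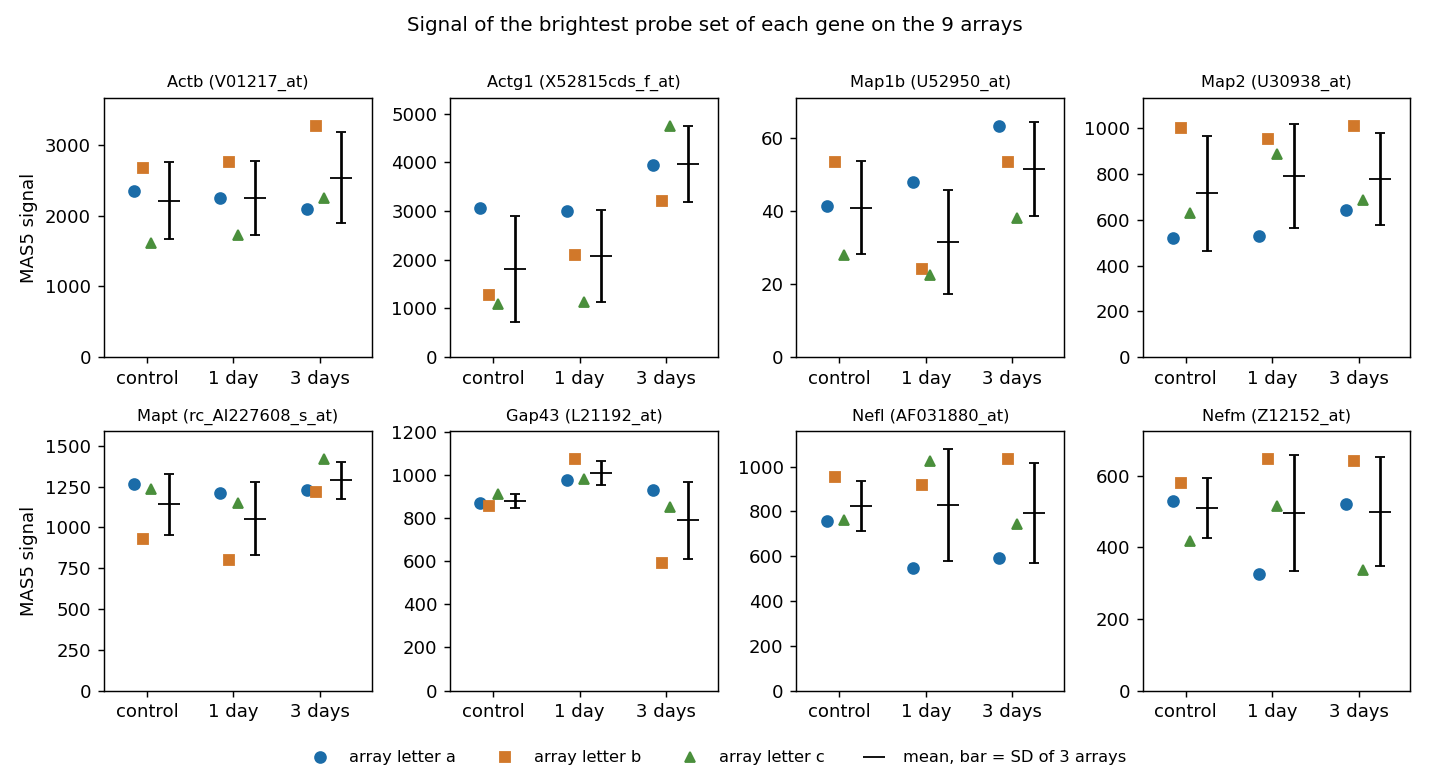
MAS5 signal (linear, no unit) of the brightest probe set of each of the 8 genes on the 9 arrays. Points are single arrays by letter, and the line and bar are the mean and SD of 3 arrays. Actg1 is highest on the 3-day arrays and Gap43 on the 1-day arrays, while for Actb, Map1b, Map2, Nefl and Nefm the 3 groups overlap.

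Over the members as a list, limma called 0 of the 15 tested probe sets in each of the 3 comparisons and in the F test over the groups, as it called 0 percent of all 5247. The letter block gave 0 as well. In the F test 1 of 15, Actg1, had an unadjusted p under 0.05 (1.05 percent of all probe sets). At an unadjusted p under 0.05 there were 0 of 15 at 1 day (1.01 percent of all probe sets), 2 of 15 at 3 days (1.72 percent), namely Actg1 and the dimmer Nefl probe set, and 1 of 15 between the times (1.83 percent), Actg1. With the letter block these were 0, 2 and 1 of 15, against 2.59, 5.15 and 5.24 percent. The 1-day and 3-day comparisons share the control arrays, and the third uses the arrays of both.

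At 1 day 8 of the 15 stood higher than control and 7 lower, with a median difference of 0.03, against 52.7 percent higher and a median of 0.02 over all probe sets. At 3 days 10 stood higher and 5 lower, with a median of 0.18, against 51.7 percent and 0.016. Between the times 11 stood higher and 4 lower, with a median of 0.17, against 50.1 percent and 0.0013. Without control c and 1-day c the counts higher and lower were 5 and 10 at 1 day, 8 and 7 at 3 days and 13 and 2 between the times. Over all probe sets 52.3, 47.8 and 46.4 percent were higher on these arrays. The member medians were -0.11, 0.03 and 0.26, against 0.02, -0.02 and -0.04 over all probe sets. Several of the 15 share a gene, so they are not independent.

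The groups did not overlap for 1 member at 1 day, Gap43, which was higher (2.63 percent of all probe sets were higher without overlap, and 1.58 percent lower). At 3 days it was 2, Actg1 and the dimmer Nefl probe set, both higher (4.73 percent higher, 3.01 percent lower). Between the times 3 were higher, Actg1, the brightest Mapt and the dimmer Nefl probe set (3.05 percent), and 1 was lower, Gap43 (2.67 percent). The direction was the same in all 3 letter pairs for 3 of 15 members at 1 day, 5 at 3 days and 6 between the times, against 26.1, 30.1 and 25.5 percent of all probe sets.

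**Figure D3:**
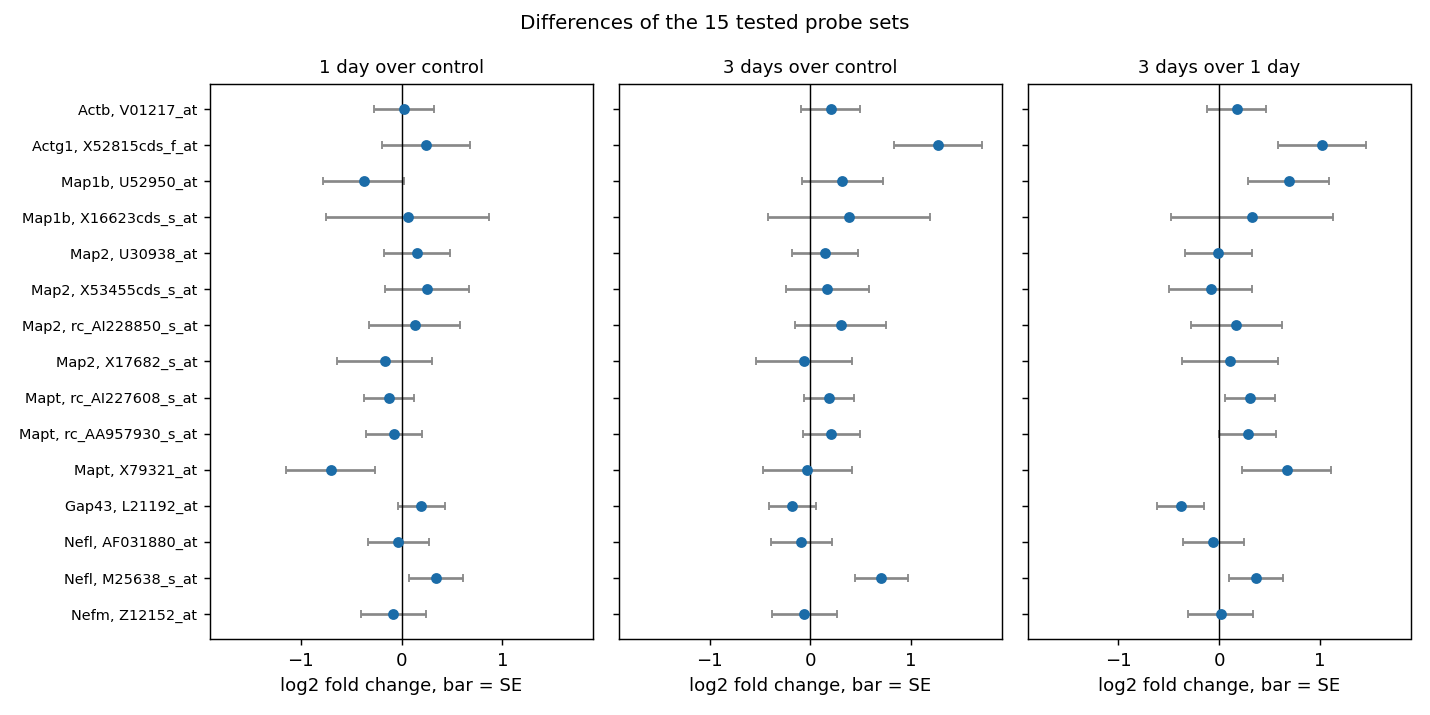
Differences (log2 fold change of signal + 4, horizontal axis) of the 15 tested member probe sets in the 3 comparisons, with bars of 1 SE. Most lie within about 1 SE of 0; Actg1 at 1.27 and the dimmer Nefl probe set at 0.71 stand furthest to the right at 3 days over control, and Gap43 is lowest between the times at -0.38.

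The members varied less within groups once the array letter was taken into account. The letters pair the arrays of the whole series: in 9 pairs of same-letter arrays, deviations from the group means had an r of 0.17 to 0.47 across probe sets. With the letter in the fit, the median residual SD of the 15 members was 0.31, against 0.44 without it; over all 5247 it was 0.36 against 0.48. What the letter stands for is not given in the labels.

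By letter, the brightest probe sets of the dendritic and axonal genes had the following levels. Map2 (U30938_at) averaged 564.3 ± 67.0 on the arrays a, 988.8 ± 29.6 on the arrays b and 734.4 ± 136.2 on the arrays c, over the 3 groups (SD, n = 3 each). Array a was low and array b high in every group. Nefl (AF031880_at) averaged 632.8 on a, 967.4 on b and 845.2 on c, and Nefm 459.2, 622.1 and 423.1. The other tested probe sets of Map2 and Nefl did not share this order: X53455cds_s_at, rc_AI228850_s_at and X17682_s_at of Map2, at 183.9, 125.1 and 100.9 on a, and M25638_s_at of Nefl, at 340.2, all had their highest mean on the arrays a. Mapt ran the other way, with 1237 on a, 980.5 on b and 1266 on c, so that b was lowest, while Actb had its highest mean, 2906, on b.

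A moderated F test of the letter, with the group in the model, called 187 of all 5247 probe sets, or 3.56 percent, and 0 of the 15 members. The lowest adjusted p of a member was 0.0816, for Map2. At an unadjusted p under 0.05 there were 7 of 15 members, against 30 percent of all probe sets. Without 1-day c, 2 member probe sets passed, X16623cds_s_at of Map1b and rc_AI228850_s_at of Map2 (limma adjusted p = 0.0386 each), where 5.03 percent of all probe sets did.

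**Figure D4:**
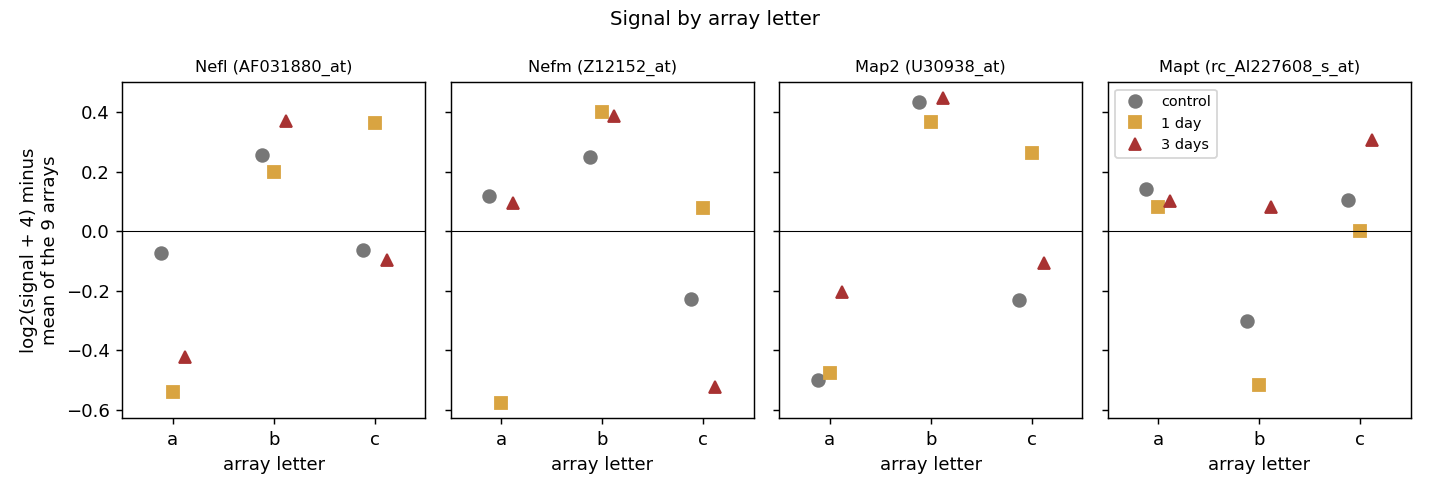
Signal of Nefl, Nefm, Map2 and Mapt by array letter, as log2(signal + 4) minus the mean of the 9 arrays (vertical axis); each point is 1 array and symbols mark the groups. For Nefl, Nefm and Map2 the arrays b lie above 0 in all 3 groups, and for Mapt the control and 1-day arrays b are the lowest.

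Further gene sets of the cytoskeleton were described from 4 lists, with 1 probe set per gene, and limma called 0 of their genes in any comparison of the groups. Actg1 is not among the genes counted in the actin list. Of the actin regulators 27 were tested, of 34 on the array; 15 were higher and 12 lower at 3 days, with a median of 0.02. Of the tubulins, microtubule-associated proteins and motors 29 of 30 were tested, with 17 higher and 12 lower and a median of 0.08. Of the intermediate filament genes 8 of 13 were tested, with 6 higher and 2 lower and a median of 0.14. Of the genes of neurite growth, guidance and adhesion 35 of 50 were tested, with 19 higher and 16 lower and a median of 0.13. At 1 day the counts higher and lower were 15 and 12, 20 and 9, 4 and 4, and 21 and 14 in the same order of lists, with medians between 0.06 and 0.11. Without control c and 1-day c the counts at 1 day were 13 and 14, 19 and 10, 5 and 3, and 16 and 19, and at 3 days 17 and 10, 18 and 11, 5 and 3, and 22 and 13. Over all probe sets 52.7 percent were higher at 1 day and 51.7 percent at 3 days, and 52.3 and 47.8 percent without these arrays.

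In each list the genes with the smallest p over the 3 groups are named, so a gap between their groups is partly what this choice selects. Their unadjusted F-test p ran from 0.0589 for Pafah1b1 to 0.388 for Krt18, with 0.129 for Mark2 and 0.262 for Plec. Of all probe sets 2.63 percent were higher than control without overlap at 1 day and 4.73 percent at 3 days. Tpm4, a tropomyosin that lines actin filaments, read 90, 86.8 and 100.7 at 3 days against 80.9, 36.2 and 63.4 in control, without overlap, a difference of 0.65 ± 0.38. Limk1, the kinase that blocks the actin-severing protein cofilin, had a signal of 11.5 on 1-day c, against 152.3 to 243.5 on the other 8 arrays; its difference at 1 day was -1.31 ± 0.77, and -0.07 without control c and 1-day c.

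Mark2, a kinase that phosphorylates microtubule-associated proteins, averaged 39.4 ± 2.1 on the control arrays, 59.8 ± 3.0 on the 1-day arrays and 56.6 ± 1.9 on the 3-day arrays (SD, n = 3 each). Its control arrays lay below all 6 others, with differences of 0.56 ± 0.27 and 0.48 ± 0.27 (limma adjusted p = 1.00 each). Pafah1b1, the dynein regulator LIS1, averaged 530.2 ± 69.6 at 3 days and 795.1 ± 51.1 at 1 day (SD, n = 3 each). It stood at -0.59 ± 0.22 between the times, without overlap (limma adjusted p = 0.998).

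Plec, the linker protein plectin, averaged 262.0 ± 25.8 on the control arrays, 337.1 ± 48.7 on the 1-day arrays and 326.1 ± 25.7 on the 3-day arrays (SD, n = 3 each), with no control array as high as any dehydrated array. Krt18, a keratin, was dim, at 21.1 ± 3.9 on the control arrays, 35 ± 9.5 on the 1-day arrays and 28.0 ± 9.9 on the 3-day arrays (SD, n = 3 each). Ephb1, an ephrin receptor, stood at 1.23 ± 0.48 at 3 days from control, a value that contains a control b signal of 14.9 against 78.7 on control a. Ptn, the growth factor pleiotrophin, stood at -1.17 ± 0.53, with 453.8 on control b and 50 on 3-day b, and at -1.61 without control c and 1-day c.

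Signals of cell type markers, 1 probe set per gene, were summed per array beside these values; limma called 0 of their tested genes between groups. Such a sum adds different probe sets, so bright genes weigh most in it, and bright probe sets in general stood higher on the 3-day arrays. The 14 magnocellular markers on the array summed to 14176 to 16396 at 3 days, against 7556 to 11470.2 in control, without overlap. Among them Avp averaged 4553 at 3 days and 2373 in control, and Oxt 3828 and 1871. The Oxt mean in control contains 208.3 on control c, against 3074 and 2331 on control a and b. Its difference at 3 days was 1.72 ± 1.05, with 0.35, 0.46 and 4.36 within the letter pairs. By gene, 10 of the 14 were higher at 3 days and 4 lower. The 18 markers of neurons in general summed to 11792 to 13146 at 3 days and 10041 to 12221 in control, and 13 astrocyte markers to 13682 to 17476 and 9485 to 14088; both overlapped. Oligodendrocyte markers (10) summed to 4885 to 9147 and 6321 to 9324. Microglial markers (12) summed to 1767 to 1900 at 3 days and 1524 to 1616 in control, and endothelial, mural and blood markers (13) to 2207 to 2979 and 3553 to 3722, neither with overlap. These sums also hold markers under the filter. Of 7 tested microglial markers 6 were higher at 3 days and 1 lower, or 4 and 3 without control c and 1-day c. Of 10 tested endothelial, mural and blood markers 2 were higher and 8 lower, with or without these arrays. At 1 day these last lists summed to 1814 to 2198 and to 4111 to 5563, both above control without overlap. Without control c and 1-day c the control sums were 10735 to 11470.2 for magnocellular markers, 11631 to 12221 for neurons and 12893 to 14088 for astrocytes. No marker was at 0 on all arrays. Their part in the differences of the members was not tested, and in bulk tissue fewer cells of a type and less RNA per cell cannot be told apart.

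For each member the gene with the most similar profile over the 9 arrays was looked up among 3188 other genes, by Pearson's r of log2(signal + 4), as a description. The arrays share letters and groups, so this r is no test of a relation between genes. Each r is also the highest of 3188 on 9 arrays, so a high value is partly what this choice selects. Map2 was closest to Vsnl1, which encodes the neuronal calcium sensor VILIP-1 (r = 0.98), Mapt to the lipid raft gene Flot2 (0.97) and Gap43 to Rbm10, an RNA-binding protein (0.97). The lactase gene Lct was closest to Actg1 and Rere, a transcriptional corepressor, to Actb (both 0.95). Map1b was closest to the urea transporter gene Slc14a2 (0.95), Nefl to Sod2, the mitochondrial superoxide dismutase (0.94), and Nefm to the ribosomal protein gene Rps6 (0.94).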

How the data were processed

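RNA of the supraoptic nucleus was measured on 9 arrays. The authors deposited linear intensities; the submitters' processing notes name MAS5, with no version. From the values, 15 of all signals are 0, and the 2 percent trimmed means are equal, as a common scaling would give. Detection calls were not used here. Of the 8740 probe sets that are not controls, 7006 have 1 symbol, 308 several and 1426 none; 6985 of the 7006 matched RefSeq gene IDs. Log2(signal + 4) was used, 4 being the rounded 10th percentile, so differences of dim genes are understated. Probe sets under the 40th percentile of mean signal were left out. limma 3.58.1 in R 4.3.3 fitted 3 group means to 9 arrays (6 residual degrees of freedom), with an intensity trend, moderated two-sided tests and Benjamini-Hochberg adjustment over 5247 probe sets at 0.05, and was tested on simulated data. The letters pair the arrays, as the correlations in the report show (different letters: -0.33 to 0.12 in 18 pairs), so a fit with the letter as a block was run beside it (4 residual degrees of freedom). The number of arrays limits the precision. A gene is its brightest probe set by mean signal, with its others beside it. The rule for named genes took all members, in each list the pair with the smallest F-test p, and the most similar gene per member. The members, lists and tests were chosen with earlier results of these data known. Alternatives were pseudocounts of 1 and 16, no filter, the 60th percentile, quantile normalization, median centring, no trend, only the groups compared, the block, each array left out, and the mean of a gene's probe sets. Figures used Python 3.11.15 and matplotlib 3.10.9.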

Additional observations from a re-analysis of the deposited data

How the results depend on the processing

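The numbers of probe sets called, over all and among the members, were 0 in the 3 comparisons and in the F test over the groups under every alternative run. With the replicate letter as a block they were 0 too, and the lowest adjusted p of a member was 0.770 for 3 days over 1 day, 0.873 for 3 days over control and 0.958 for 1 day over control. Of 27 gene results (8 genes and the dimmer Nefl probe set in 3 comparisons), 12 kept their sign under all alternatives, and 46 of 522 values changed sign, 31 of them when 1 array was left out. Quantile normalization turned Actb to -0.19 at 3 days over control and -0.20 at 3 days over 1 day, and Nefl to 0.0071 at 1 day. Median centring turned Actb at 1 day to -0.015 and Map2 at 3 days over 1 day to 0.023. The mean of a gene's probe sets gave Nefl 0.15 at 1 day, 0.31 at 3 days over control and 0.15 over 1 day, and Map2 0.048 at 3 days over 1 day. Without control c and 1-day c, chosen after seeing the data, Actb stood at -0.0062, -0.010 and -0.0038 at 1 day, at 3 days over control and over 1 day, Map2 at -0.020 at 1 day, and at 3 days over 1 day Map2 stood at 0.10 and Nefl at 0.12. When each array was left out in turn, the values that changed sign ranged as follows. At 1 day over control Actb lay between -0.18 and 0.20, Actg1 between -0.075 and 0.70, Map2 between -0.050 and 0.42, Mapt between -0.27 and 0.061, Nefl between -0.21 and 0.24 and Nefm between -0.30 and 0.19. At 3 days over control Actb lay between -0.010 and 0.35, Gap43 between -0.31 and 0.016, Map2 between -0.056 and 0.41, Nefl between -0.30 and 0.098 and Nefm between -0.26 and 0.19. At 3 days over 1 day Actb lay between -0.023 and 0.34, Map2 between -0.27 and 0.15, Nefl between -0.33 and 0.13 and Nefm between -0.25 and 0.27. The number of probe sets called for the letter, 187, was 284 with a pseudocount of 16, 42 without control c and 1-day c, 66 without the trend, and between 10 and 264 with each array left out; among the members it lay between 0 and 2. The causes were not tested.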
